A study of Mus musculus with 407 samples.

Results

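The 10 genes described here form the insulin-like growth factor (IGF) axis of mouse skeletal muscle: the ligands Igf1 and Igf2, the receptor Igf1r, the binding proteins Igfbp3, Igfbp4, Igfbp5, Igfbp6 and Igfbp7, and the receptor substrates Irs1 and Irs2. They were picked by symbol from the 24458 gene symbols in the count tables, by a rule that uses no measured value, and each had counts in all 407 libraries. Every library was made from total RNA of 1 muscle, either the diaphragm or 1 of 3 limb muscles (gastrocnemius, soleus, tibialis anterior), of a C57BL/6J mouse. Female and male mice were compared at 6 months, the youngest age, and at 12, 18, 21, 24 and 27 months. This gave 48 groups of 6 to 10 libraries. All mice came from 1 supplier, no allele and no agent is named for any group, and the 6-month mice were the reference for every older age. Food was freely available. Tissues of 1 age group were collected on 1 day, hence age and collection day cannot be told apart. The paper does not say whether females and males of 1 age shared a day, so sex and collection day may not be separable either.

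IGF ligands bind a receptor tyrosine kinase on the cell surface, which phosphorylates insulin receptor substrates and through them activates the PI3K and AKT kinases that promote protein synthesis and restrain protein breakdown. Secreted binding proteins hold the ligands in blood and matrix and set how much of them reaches the receptor, and several also act without the ligand. In muscle the axis is known for its part in fibre growth, regeneration and insulin response.

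Levels are given as CPM, read counts scaled by library total and by the TMM factor of the library. Total counts on genes ran from 38583802 to 300089909 per library with a median of 72766895, and the members had from 3 to 231688 counts in a library, the lowest being Irs2 in a diaphragm library. Muscle fibre markers summed to 35521 CPM or more in every 6-month library. In 9 libraries the make-up stood apart. Genes with over 60% GC were low in 7 diaphragm libraries, where their median log2 deviation was -4.25 to -0.73 against -0.21 to 0.98 in all others. Liver markers exceeded 1000 CPM in 3 libraries, 1 of them also among the 7. They exceeded 10 times their median in 57 libraries, which were left out in an alternative given below. Irs2 and Igfbp6, whose exons hold 56.6% and 60.7% GC, were near 0 in most of the 7. The lowest Irs2 value was 0.0786 CPM and the lowest Igfbp6 value 0.734 CPM, so diaphragm results are given with and without the 9. Because whole muscle was sequenced, fewer cells of a type and less RNA per cell cannot be told apart in any value below.

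Per kilobase of exon, Igfbp5 was the most abundant member in every muscle, with group medians between 48.2 CPM per kb in female soleus and 163 in male gastrocnemius. The ligands and the receptor were among the lowest: median levels were 2.01 to 7.91 CPM per kb for Igf1, 3.98 to 7.05 for Igf2 and 2.64 to 3.28 for Igf1r. Irs1, at 11.2 to 30.1 CPM per kb, exceeded Irs2, at 4.91 to 9.86, in each muscle and sex.

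**Figure D1:**
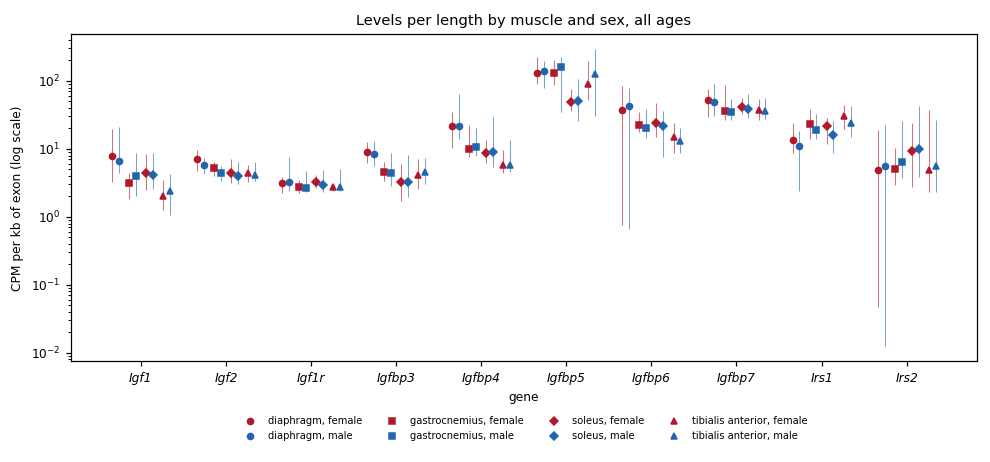
Level of each gene per kilobase of exon (log axis) by muscle and sex, over all ages; symbols are medians over 48 to 52 libraries and lines run from the lowest to the highest library. Igfbp5 stands above all other members in each muscle, and the lines that reach far down for Igfbp6 and Irs2 come from diaphragm libraries that stand apart.

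Muscles differed in the level of nearly every member. Of 120 comparisons of a pair of muscles (10 genes, 6 pairs, 2 sexes), 103 passed edgeR's quasi-likelihood test at a Benjamini-Hochberg adjusted p below 0.05. This share stood beside 76.7% of all tests of the same kind, and 106 passed without the 9 libraries. Differences below are on the log2 scale and given ± SE. The diaphragm had the highest Igf1, Igf2, Igfbp3, Igfbp4, Igfbp6 and Igfbp7 in both sexes. Female Igf1 was highest in the diaphragm, then in soleus, gastrocnemius and tibialis anterior, each step being past the test. Diaphragm exceeded tibialis anterior by 2.03 ± 0.07 (adjusted p = 5.9e-71), and by 1.96 ± 0.06 without the 9 libraries. In males the Igf1 levels of soleus and gastrocnemius were not told apart (gastrocnemius minus soleus, -0.05 ± 0.08, adjusted p = 0.621). Male Igfbp4 had the order diaphragm, gastrocnemius, soleus and tibialis anterior, with 1.81 ± 0.07 (adjusted p = 2.8e-64) between the ends, but with library totals alone gastrocnemius and soleus changed places (-0.058). Male Igfbp6 had a difference of 1.54 ± 0.09 (adjusted p = 4.5e-37) between the same ends. Without the 9 libraries these male differences were 1.97 ± 0.07 for Igfbp4 and 1.81 ± 0.06 for Igfbp6. Female Igfbp3, lowest in soleus, had one of 1.40 ± 0.06 (adjusted p = 1.4e-60) between diaphragm and soleus (1.41 ± 0.06 without the 9).

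The substrates followed other orders. Irs1 was highest in tibialis anterior and lowest in the diaphragm in both sexes. Diaphragm minus tibialis anterior was -1.15 ± 0.05 (adjusted p = 3.4e-60) in females and -1.37 ± 0.07 (adjusted p = 1.5e-47) in males. Without the 9 libraries it was -1.18 ± 0.05 in females and -1.19 ± 0.07 in males. Irs2 was highest in soleus in both sexes. Gastrocnemius minus soleus was -0.90 ± 0.14 (adjusted p = 6.4e-09) for Irs2 in females and -0.50 ± 0.15 (adjusted p = 0.002) in males. Igfbp5 was lowest in soleus in both sexes, and in males gastrocnemius minus soleus was 1.64 ± 0.06 (adjusted p = 2.4e-61). Male Igfbp5 in diaphragm and tibialis anterior was not told apart with all libraries (-0.09 ± 0.06, adjusted p = 0.159), and without the 9 the difference was 0.14 (adjusted p = 0.043). Igf1r varied least between muscles: in females soleus minus tibialis anterior was 0.26 ± 0.02 (adjusted p = 3.2e-23), the widest of its female differences. Scaling mattered to these orders, since library totals alone shifted the median of all genes by up to 0.97 on the log2 scale between diaphragm and tibialis anterior. The differences that changed sign are listed with the processing alternatives.

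More tests of the members against 6 months passed in female than in male muscle, a difference in number that was not itself tested. Over the 5 older ages, 42 of 200 female tests of the members passed against 6 months (all genes, 10.2%) and 12 of 200 male tests (6.16%), together 54 of 400 (8.17%). Of the 54, 14 rose (all genes, 4.36%) and 40 fell (3.81%). No member passed at 12 months (0 of 80 by edgeR's quasi-likelihood test; all genes, 0.36%), and 8 passed at 18 months (3.17%), 14 at 21 (9.93%), 16 at 24 (12.1%) and 16 at 27 (15.3%). The 27-month calls were 10 of 40 in females (all genes, 17.6%) and 6 of 40 in males (13.0%). The latter became 2 without replicate 6. At the oldest age the share of members was thus close to that of all genes. A test of any difference among the 6 ages passed for 18 of 40 genes and muscles in females (21.6%) and 7 of 40 in males (16.3%). Without the 9 libraries, an alternative that was not planned, 72 of 400 passed (all genes, 8.54%). Of these 14 rose (4.5%) and 58 fell (4.05%), and at 27 months 23 of 80 passed (16.7%). Whether females and males differed in their change was tested gene by gene and is given below.

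**Figure D2:**
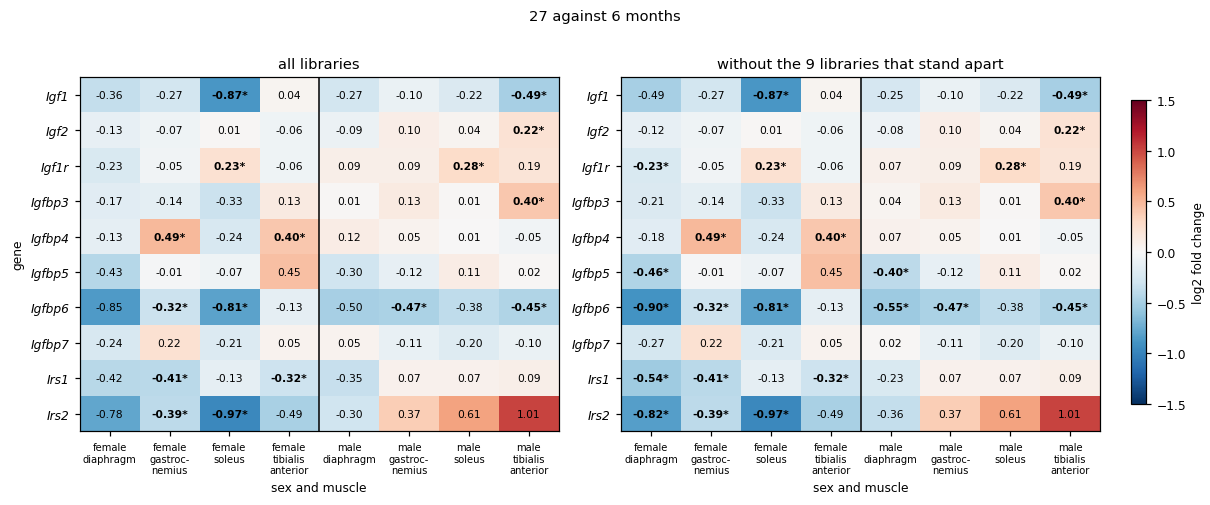
Log2 fold change of each gene (rows) at 27 against 6 months in each muscle and sex (columns), with all libraries on the left and without the 9 that stand apart on the right; bold values with a star had an adjusted p below 0.05. Igfbp6 fell in 4 columns on the left and 6 on the right, and the diaphragm columns hold stars only on the right.

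Igf1 (chr10:87858265-87937042 of GRCm38) encodes the growth factor that muscle and liver secrete under growth hormone. In female soleus its 6-month libraries spanned 49.4 to 84.6 CPM (median 72.0, n = 8). At 27 months they spanned 29.0 to 50.2 CPM (median 39.7, n = 10). All but 1 of the 10 oldest libraries lay below every 6-month library. Medians at the 6 ages, from youngest to oldest, were 72.0, 53.6, 40.7, 34.3, 32.0 and 39.7 CPM. The log2 fold change against 6 months was -0.78 ± 0.16 (adjusted p = 0.0016) at 18 months and -1.04 ± 0.16 (adjusted p = 4.2e-06) at 21 months. It was -1.08 ± 0.15 (adjusted p = 8.8e-07) at 24 months and -0.87 ± 0.15 (adjusted p = 2.8e-05) at 27 months. The 27-month call held under each alternative that was run.

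Elsewhere in females the fall of Igf1 passed at fewer ages. Gastrocnemius fell at 21 months (-0.38 ± 0.13, adjusted p = 0.032) and 24 months (-0.44 ± 0.12, adjusted p = 0.0063), while the 27-month value was -0.27 ± 0.12 (adjusted p = 0.081). Its medians at the 6 ages were 37.3, 32.0, 30.9, 26.6, 26.9 and 30.4 CPM. Female diaphragm fell at 24 months (-0.83 ± 0.20, adjusted p = 0.012). Without the libraries that stand apart it fell at 21 months (-0.67 ± 0.19, adjusted p = 0.033) and 24 months (-0.80 ± 0.18, adjusted p = 0.0033). Female tibialis anterior passed at no age, with medians between 17.1 and 22.8 CPM.

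Among male muscles Igf1 passed in tibialis anterior at 27 months alone. Its 6-month libraries spanned 20.8 to 42.6 CPM (median 30.6, n = 8) and its 27-month ones 10.5 to 31.5 CPM (median 23.8, n = 10). The ranges overlapped, with 4 of 10 old libraries below all young ones. Its log2 fold change was -0.49 ± 0.17 (adjusted p = 0.034). Without replicate 0, 2, 6, 8 or 9 it was no longer past the threshold (-0.46 to -0.38, adjusted p from 0.050 to 0.10), nor was it with the replicate number as a block, with library totals alone or in the run with most libraries (-0.51 to -0.37, adjusted p from 0.051 to 0.171). A run here is a stretch of neighbouring sample numbers, as the labels give them, within a muscle. In male soleus the 27-month value was -0.22 ± 0.19 (adjusted p = 0.682). Of the 40 Igf1 contrasts over all muscles, sexes and ages 38 were below 0, and none rose past the test.

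Igf2 (chr7:142650766-142666816), the imprinted growth factor of fetal life, moved little. Its group medians lay between 21.3 CPM in male tibialis anterior at 6 months and 44.1 CPM in female diaphragm at 12 months. In female gastrocnemius it fell at 18 months (-0.27 ± 0.07, adjusted p = 0.0036) and 21 months (-0.22 ± 0.07, adjusted p = 0.015). The value at 27 months was -0.07 ± 0.06 (adjusted p = 0.416). In male tibialis anterior the 6-month libraries spanned 20.1 to 26.0 CPM (median 21.3, n = 8) and the 27-month libraries 23.4 to 29.2 CPM (median 24.8, n = 10). Of the old libraries 4 of 10 lay above all young ones. Igf2 rose there at 24 months (0.24 ± 0.08, adjusted p = 0.027) and 27 months (0.22 ± 0.08, adjusted p = 0.039). The 27-month call was lost without replicate 0, 1, 2, 5, 6, 7 or 9 (0.17 to 0.23, adjusted p from 0.051 to 0.18). Other settings that ended it were no filter, the run of sample numbers as a covariate, the libraries under 10 times the median of liver markers and the run with most libraries (0.19 to 0.24, adjusted p from 0.052 to 0.176).

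**Figure D3:**
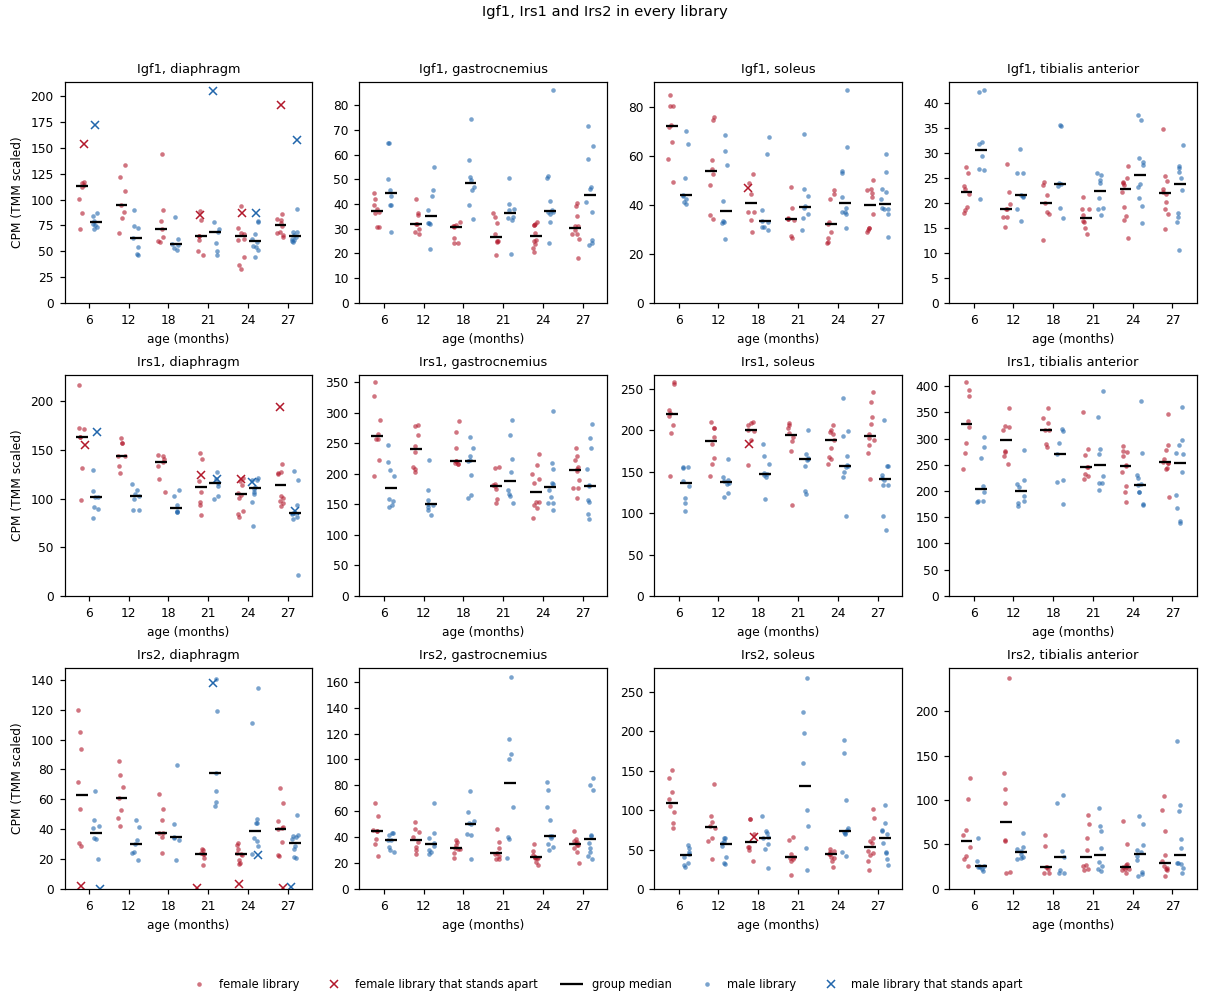
Igf1, Irs1 and Irs2 in CPM against age in months, 1 panel per gene and muscle; dots are libraries, crosses are the libraries that stand apart, and black bars are group medians. Female Igf1 and Irs2 in soleus decline to 21 and 24 months, and male Irs2 in gastrocnemius and soleus peaks at 21 months, with a wide spread between mice.

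Igf1r (chr7:67952827-68233668), the receptor of both ligands, rose in the soleus of both sexes. In female soleus the 6-month libraries spanned 44.2 to 53.9 CPM (median 50.3, n = 8) and the 27-month ones 52.8 to 66.9 CPM (median 58.9, n = 10). Only 1 of the 10 old libraries was within the young range. On the log2 scale the change was 0.21 ± 0.06 (adjusted p = 0.0035) at 24 months and 0.23 ± 0.05 (adjusted p = 0.0021) at 27 months. With library totals alone the 27-month value became 0.032 and was no longer past the test, and in the run with most libraries it was 0.17 (adjusted p = 0.055). In male soleus Igf1r spanned 42.7 to 55.3 CPM (median 46.3, n = 8) at 6 months and 46.8 to 80.9 CPM (median 55.1, n = 10) at 27 months. Of the old libraries 5 of 10 lay above all young ones, and the log2 fold change was 0.28 ± 0.07 (adjusted p = 0.024). This call was lost without replicate 3, 4, 6 or 7 (0.25 to 0.29, adjusted p from 0.065 to 0.089). It was also lost with library totals alone, without libraries over 10 times the median of liver markers and in the run with most libraries (0.14 to 0.34, adjusted p from 0.061 to 0.309).

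In other muscles Igf1r fell or did not pass. Female gastrocnemius fell at 18 months (-0.15 ± 0.05, adjusted p = 0.03) and at no later age. Female diaphragm fell at 18, 21, 24 and 27 months without the 9 libraries (-0.23 ± 0.06, adjusted p = 0.013 at 27 months) and at none with them. Replicate 8 of the 27-month males had the highest Igf1r of its group in all 4 muscles. It had 127.6 CPM in diaphragm, 84.2 in tibialis anterior, 80.9 in soleus and 79.3 in gastrocnemius.

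Igfbp6 (chr15:102144362-102149511), a binding protein that prefers Igf2, fell in more tests than any other binding protein. It fell in 11 of 40 tests with all libraries and in 16 without the 9, and it never rose. Female soleus showed the clearest separation. There the 6-month libraries spanned 31.5 to 47.4 CPM (median 39.5, n = 8) and the 27-month ones 17.8 to 29.9 CPM (median 21.3, n = 10). The groups did not overlap. Medians at the 6 ages were 39.5, 34.1, 31.2, 24.4, 25.5 and 21.3 CPM. The log2 fold change was -0.78 ± 0.14 (adjusted p = 3.3e-05) at 21 months, -0.69 ± 0.13 (adjusted p = 0.0001) at 24 months and -0.81 ± 0.13 (adjusted p = 8.4e-06) at 27 months. The last of these was kept under every alternative that was run.

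In female gastrocnemius Igfbp6 spanned 25.4 to 35.6 CPM (median 29.9, n = 8) at 6 months and 19.5 to 38.3 CPM (median 22.7, n = 10) at 27 months. All but 1 of the old libraries lay below every young one, and replicate 0 lay above them all. It fell from 18 months on, with -0.30 ± 0.09 (adjusted p = 0.015) at 18 months and -0.32 ± 0.08 (adjusted p = 0.0021) at 27 months. The 27-month value missed the threshold with library totals alone and in the run with most libraries (-0.22 to -0.18, adjusted p from 0.073 to 0.157). In male gastrocnemius the 6-month libraries spanned 24.0 to 32.1 CPM (median 27.4, n = 8) and the 27-month ones 16.4 to 24.0 CPM (median 18.7, n = 10). Here 9 of 10 old libraries lay below all young ones, and the log2 fold change was -0.47 ± 0.10 (adjusted p = 0.00061). Male tibialis anterior fell as well (-0.45 ± 0.10, adjusted p = 0.00088), from a median of 17.4 to 12.3 CPM, with 8 of 10 old libraries below all young ones, but missed the threshold in the run with most libraries (-0.32, adjusted p = 0.057).

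In the diaphragm no call of Igfbp6 was made with all libraries. A single library near 0 stood in each 6- and 27-month group, and the 27-month values were -0.85 ± 0.44 (adjusted p = 0.387) in females and -0.50 ± 0.37 (adjusted p = 0.433) in males. Without the 9 libraries the female diaphragm spanned 43.1 to 92.2 CPM (median 68.4, n = 7) at 6 months and 27.2 to 44.7 CPM (median 38.0, n = 9) at 27 months. It then fell by 0.90 ± 0.16 (adjusted p = 0.00055), and male diaphragm by 0.55 ± 0.16 (adjusted p = 0.019).

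Markers of fibroblasts and fibro-adipogenic progenitors also fell with age. Their summed levels are given below only for the limb muscles and sexes where Igfbp6 passed at 27 months, so a match by muscle cannot be judged. Each of the 10 marker genes was tested in all 8 fits, and at 27 months 39 of the 80 tests fell (all genes, 7.32%) and none rose (8.01%). Their summed level in female soleus was 1741 to 2701 CPM at 6 months and 954 to 1854 CPM at 27 months. In female gastrocnemius it was 1644 to 1964 CPM at 6 months and 1103 to 2387 CPM at 27 months. In male gastrocnemius it was 1706 to 2004 CPM at 6 months and 1146 to 1556 CPM at 27 months, and in male tibialis anterior 1156 to 1619 CPM at 6 months and 620.4 to 1144 CPM at 27 months. In the diaphragm 2 markers fell in each sex with all libraries, and 8 in females and 6 in males without the 9. The part of this decline in the lower Igfbp6 and Igf1 was not tested.

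Counts for markers of other cells at 27 months are read against all genes, of which 8.01% rose and 7.32% fell. Satellite cell markers fell in 22 of 48 tests and rose in 1, endothelial markers fell in 10 of 80 and rose in 3, and mural cell markers fell in 7 of 64 and rose in 6. Macrophage markers rose in 12 of 80 tests and fell in 3, adipocyte markers rose in 2 of 56 and liver markers in 12 of 95, and muscle fibre markers rose in 9 of 80 and fell in 10. Genes known to rise on denervation did so in 54 of 80 tests and fell in none. Like the other lists, that list was proposed with earlier results of these data known, so its count is a description only. At its own threshold, a Bonferroni adjusted p, the paper reported no rise of Chrnd, Musk and Ncam1 in male mouse muscle, except Chrnd in gastrocnemius. Genes of the insulin and fasting response, a list read beside Irs2, rose in 7 of 64 tests and fell in 4, and clock genes rose in 1 of 80 and fell in 6. The part of any of these in the members' changes was not tested.

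Igfbp4 (chr11:99041244-99054392), an inhibitory binding protein that the protease Pappa cleaves, rose in 2 female limb muscles. In gastrocnemius its 6-month libraries spanned 33.6 to 46.9 CPM (median 39.9, n = 8) and its 27-month ones 41.3 to 99.2 CPM (median 52.5, n = 10). Of the old libraries 8 of 10 exceeded all young ones, with the highest value in replicate 0. Its log2 fold change was 0.29 ± 0.10 (adjusted p = 0.035) at 21 months, 0.29 ± 0.09 (adjusted p = 0.026) at 24 months and 0.49 ± 0.09 (adjusted p = 8.4e-05) at 27 months. In tibialis anterior the level spanned 19.7 to 26.3 CPM (median 23.1, n = 8) at 6 months and 20.3 to 42.9 CPM (median 31.9, n = 10) at 27 months. Here 6 of 10 old libraries exceeded all young ones. On the log2 scale the change was 0.36 ± 0.10 (adjusted p = 0.0087) at 24 months and 0.40 ± 0.10 (adjusted p = 0.0027) at 27 months. Without libraries over 10 times the median of liver markers the latter was 0.17 (adjusted p = 0.24). In female soleus Igfbp4 fell at 21 months (-0.34 ± 0.12, adjusted p = 0.036). In males it passed in no muscle, the 27-month values running from -0.05 in tibialis anterior to 0.12 in diaphragm.

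The other binding proteins passed seldom. Igfbp5 (chr1:72857932-72874884), known for binding the extracellular matrix, passed at no age with all libraries (0 of 40 by edgeR's quasi-likelihood test) and in 3 tests without the 9. In female diaphragm, without them, it spanned 768 to 1148 CPM (median 1049, n = 7) at 6 months and 532 to 889.9 CPM (median 692, n = 9) at 27 months. It then fell there by 0.46 ± 0.13 (adjusted p = 0.02) at 24 months and 0.46 ± 0.13 (adjusted p = 0.032) at 27 months, and in male diaphragm by 0.40 ± 0.10 (adjusted p = 0.011) at 27 months. Replicate 8 of the 27-month males had its group's lowest Igfbp5 in each muscle, with 472.9 CPM in diaphragm, 182.9 in tibialis anterior, 156.1 in soleus and 212.5 in gastrocnemius.

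Igfbp3 (chr11:7206086-7213923), the main carrier of IGF in blood, rose once, in male tibialis anterior at 27 months. Its libraries there spanned 10.6 to 15.3 CPM (median 13.3, n = 8) at 6 months and 9.43 to 23.1 CPM (median 14.9, n = 10) at 27 months. The groups overlapped, with 5 of 10 old libraries above and 1 below all young ones. The log2 fold change of 0.40 ± 0.13 (adjusted p = 0.023) missed the threshold without replicate 4, 5, 6 or 8 (0.30 to 0.36, adjusted p from 0.051 to 0.12), with limma-voom or in the run with most libraries (0.28 to 0.35, adjusted p from 0.060 to 0.251). Igfbp7 (chr5:77349240-77408041), a low-affinity relative found around vessels, fell in female soleus at 18 months (-0.33 ± 0.09, adjusted p = 0.015). Its median there went from 56.1 to 44.7 CPM, and at 27 months the value was -0.21 ± 0.08 (adjusted p = 0.064).

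**Figure D4:**
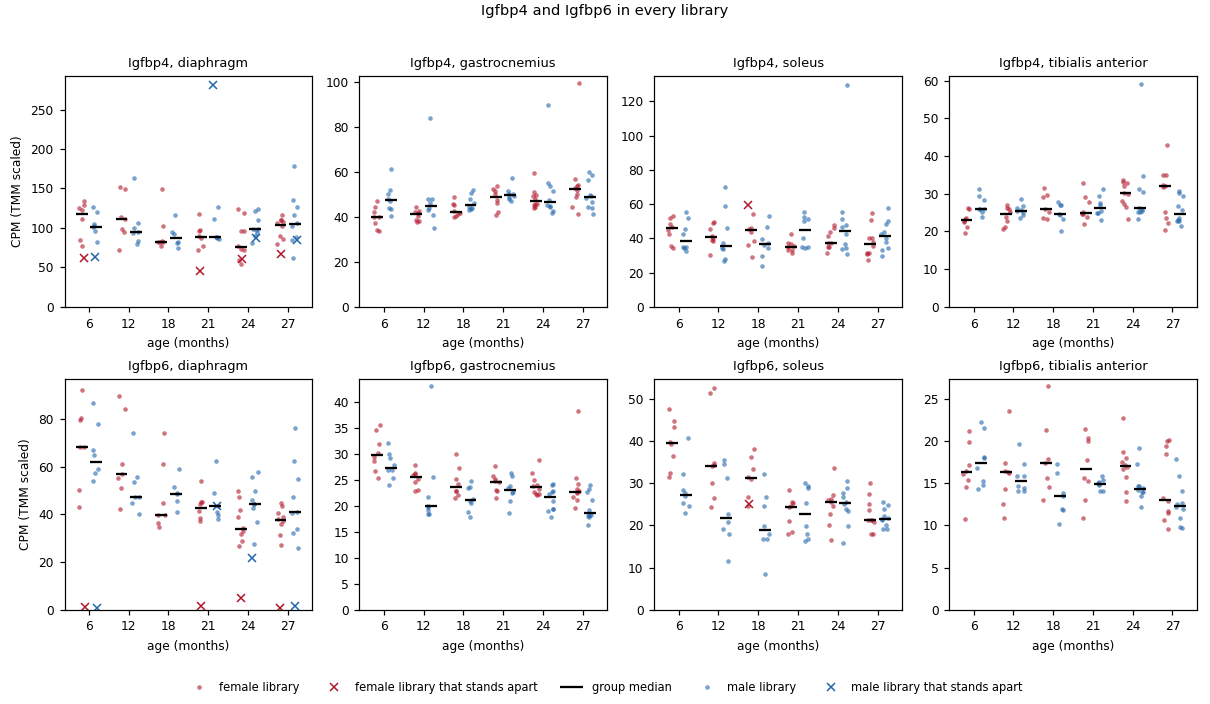
Igfbp4 (top) and Igfbp6 (bottom) in CPM against age in months, 1 column of panels per muscle; dots are libraries, crosses the libraries that stand apart, black bars group medians. Igfbp6 in female soleus has no overlap between 6 and 27 months, and Igfbp4 drifts upward in female gastrocnemius and tibialis anterior.

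Irs1 (chr1:82233101-82291416), a docking protein for the activated IGF and insulin receptors, fell in 8 female tests and in no male one. In female gastrocnemius its 6-month libraries spanned 196 to 351 CPM (median 261, n = 8) and its 27-month ones 161 to 243 CPM (median 207, n = 10). The ranges overlapped, with 4 of 10 old libraries below the young range. Medians at the 6 ages were 261, 241, 221, 181, 169 and 207 CPM. The log2 fold change was -0.55 ± 0.10 (adjusted p = 0.00012) at 21 months, -0.61 ± 0.10 (adjusted p = 5.2e-06) at 24 months and -0.41 ± 0.10 (adjusted p = 0.0012) at 27 months. Female tibialis anterior fell at the same 3 ages, by 0.34 ± 0.10 (adjusted p = 0.02), 0.44 ± 0.10 (adjusted p = 0.00087) and 0.32 ± 0.10 (adjusted p = 0.013). At 27 months this call was lost without replicate 1 or 5 (-0.28 and -0.27, adjusted p = 0.051 and 0.070). The same held with library totals alone, without libraries over 10 times the median of liver markers and in the run with most libraries (-0.29 to -0.23, adjusted p from 0.057 to 0.159). In female diaphragm Irs1 fell at 21 months (-0.50 ± 0.13, adjusted p = 0.033) and 24 months (-0.65 ± 0.12, adjusted p = 0.0012). At 27 months it fell with the 9 libraries left out (-0.54 ± 0.12, adjusted p = 0.0046). Female soleus medians stayed between 188 and 219 CPM, with -0.13 ± 0.10 (adjusted p = 0.358) at 27 months. In males the 27-month values ran from -0.35 in diaphragm to 0.09 in tibialis anterior.

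Irs2 (chr8:10984681-11008458), a related docking protein whose transcript is known to respond to fasting and insulin, had the widest spread of all members. Its SD between mice of a group was 0.58 on the log2 scale (median over 48 groups), above 98.9% of the 14182 genes tested throughout. The same measure was 0.34 for Igf1, 0.10 for Igf1r and 0.17 for the median gene. In female soleus Irs2 spanned 77.8 to 150.3 CPM (median 109, n = 8) at 6 months and 17.6 to 66.1 CPM (median 40.2, n = 8) at 21 months. At 27 months it spanned 24.5 to 102 CPM (median 53.5, n = 10). At 21 and 24 months no library reached the 6-month range, and at 27 months 2 of 10 did. Its log2 fold change was -0.83 ± 0.22 (adjusted p = 0.019) at 18 months and -1.39 ± 0.23 (adjusted p = 1.4e-05) at 21 months. It was -1.42 ± 0.22 (adjusted p = 4.4e-06) at 24 months and -0.97 ± 0.21 (adjusted p = 0.00079) at 27 months. Female gastrocnemius fell at the same 4 ages, with -0.82 ± 0.14 (adjusted p = 2.7e-05) at 24 months and -0.39 ± 0.14 (adjusted p = 0.033) at 27 months. The 27-month call was lost without replicate 0, 1, 2, 6 or 7 (-0.39 to -0.32, adjusted p from 0.061 to 0.11), and with library totals alone or in the run with most libraries (-0.33 to -0.28, adjusted p from 0.106 to 0.145). Female diaphragm passed only without the 9 libraries, at 21 months (-1.66 ± 0.25, adjusted p = 8.3e-05), 24 months (-1.65 ± 0.23, adjusted p = 1.6e-05) and 27 months (-0.82 ± 0.23, adjusted p = 0.028).

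Male Irs2 moved the other way at intermediate ages. In male soleus its libraries spanned 27.6 to 55.1 CPM (median 42.5, n = 8) at 6 months and 24.2 to 268 CPM (median 130.2, n = 8) at 21 months. Of the 8 libraries at 21 months 6 exceeded and 1 fell below the whole young range. Medians at the 6 ages were 42.5, 56.5, 65.1, 130.2, 73.4 and 64.3 CPM. Irs2 rose by 1.75 ± 0.32 (adjusted p = 0.0014) at 21 months and 1.17 ± 0.30 (adjusted p = 0.018) at 24 months on the log2 scale. In male gastrocnemius it spanned 28.5 to 43.3 CPM (median 37.8, n = 8) at 6 months and 23.8 to 163 CPM (median 81.7, n = 8) at 21 months. There 5 of 8 libraries exceeded the young range and 1 fell below it, and Irs2 rose by 1.15 ± 0.29 (adjusted p = 0.0067). By 27 months no male muscle passed, and tibialis anterior had a log2 fold change of 1.01 ± 0.39 (adjusted p = 0.063).

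The 250 bases before the RefSeq starts (GRCm38.p6) of both substrates are shown because of the correlation between their levels. Their Pearson r was 0.63 over the 48 group means, after removal of the mean of each muscle and sex, the highest among pairs of members. The levels did not move together everywhere. In female soleus Irs2 fell while Irs1 passed at no age, and the rises of male Irs2 had no Irs1 call beside them. Each window holds a canonical E-box, CACGTG, in capitals, a palindrome and so the same on both strands. Irs1 lies on the minus strand with its window at chr1:82291440-82291689, and Irs2 on the minus strand with its window at chr8:11008930-11009179, and both are printed 5′ to 3′ on that strand.
Irs1: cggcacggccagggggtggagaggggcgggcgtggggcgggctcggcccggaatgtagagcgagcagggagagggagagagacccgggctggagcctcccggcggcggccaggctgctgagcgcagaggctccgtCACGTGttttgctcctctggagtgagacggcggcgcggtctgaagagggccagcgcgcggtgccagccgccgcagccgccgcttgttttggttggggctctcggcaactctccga
Irs2: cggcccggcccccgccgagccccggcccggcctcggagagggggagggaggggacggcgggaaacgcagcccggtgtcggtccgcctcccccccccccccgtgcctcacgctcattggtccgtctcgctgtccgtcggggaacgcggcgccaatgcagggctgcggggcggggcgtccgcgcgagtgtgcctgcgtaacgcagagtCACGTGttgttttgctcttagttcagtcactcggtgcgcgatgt
No other member had this hexamer in its windows (13 windows for 10 genes, 4 of them for Igf2), and 6.02% of all 32851 windows in the table held it. The forkhead motif GTAAACA or its reverse complement TGTTTAC was in none of the member windows and in 3.17% of all. The GC content was 72.4% for the Irs1 window and 72.8% for the Irs2 window beside a median of 52.4% over all windows.

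Sex differences were found in 19 of 40 comparisons of female and male levels over all ages (10 genes, 4 muscles), beside 38.6% of all tests. Without the 9 libraries 20 passed. Of the 19 with all libraries, 13 were higher and 6 lower in females. Averaged over the ages, Irs1 was higher in females in each muscle. Its log2 difference, female minus male, was 0.39 ± 0.05 (adjusted p = 2.3e-11) in soleus and 0.34 ± 0.06 (adjusted p = 4.3e-05) in diaphragm. It was 0.26 ± 0.06 (adjusted p = 5e-05) in tibialis anterior and 0.20 ± 0.05 (adjusted p = 0.00089) in gastrocnemius. Igf2 was likewise higher in females in all 4, by 0.30 ± 0.04 (adjusted p = 6.8e-08) in diaphragm and 0.27 ± 0.03 (adjusted p = 3.4e-14) in gastrocnemius. In soleus it was higher by 0.15 ± 0.04 (adjusted p = 0.004) and in tibialis anterior by 0.11 ± 0.03 (adjusted p = 0.0042). Igfbp6 was higher in the 3 female limb muscles, by 0.29 ± 0.07 (adjusted p = 0.00025) in soleus, 0.18 ± 0.04 (adjusted p = 7e-05) in gastrocnemius and 0.15 ± 0.05 (adjusted p = 0.017) in tibialis anterior.

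Lower in females was Igf1 in gastrocnemius (-0.46 ± 0.07, adjusted p = 4.3e-08) and tibialis anterior (-0.29 ± 0.07, adjusted p = 9.1e-05). Igfbp5 was lower in the same muscles (-0.28 ± 0.06, adjusted p = 3.2e-05 and -0.45 ± 0.08, adjusted p = 3.2e-06). In diaphragm Igf1 did not pass with all libraries (0.21 ± 0.09, adjusted p = 0.112). Without the 9 libraries it was higher in females there (0.28 ± 0.07, adjusted p = 0.00089). Irs2 was lower in female gastrocnemius (-0.52 ± 0.09, adjusted p = 6.2e-07) and Igfbp3 in female tibialis anterior (-0.20 ± 0.06, adjusted p = 0.0018). At 6 months alone 9 of 40 passed (all genes, 10.4%), and at 27 months 9 of 40 (15.3%). Without the 9 libraries these were 10 and 8. Irs2 in soleus at 6 months had the widest gap, 1.46 ± 0.28 (adjusted p = 0.00014). There the lowest female library (77.8 CPM) exceeded the highest male one (55.1 CPM). At 27 months that difference was -0.13 ± 0.25 (adjusted p = 0.839). Irs1 at 6 months differed by 0.71 ± 0.12 (adjusted p = 8.8e-06) in soleus, 0.56 ± 0.13 (adjusted p = 0.00089) in gastrocnemius and 0.55 ± 0.14 (adjusted p = 0.0032) in tibialis anterior. In diaphragm the 6-month Irs1 difference was 0.55 ± 0.15 (adjusted p = 0.080), and without the 9 libraries 0.67 ± 0.15 (adjusted p = 0.0071). At 27 months Irs1 passed in soleus (0.50 ± 0.11, adjusted p = 0.00068) and diaphragm (0.48 ± 0.14, adjusted p = 0.026, but 0.38 and 0.087 without the 9 libraries). It did not pass in gastrocnemius (0.06 ± 0.12, adjusted p = 0.746) or tibialis anterior (0.14 ± 0.13, adjusted p = 0.444). In tibialis anterior at 27 months Igf2 (-0.03) and Igf1 (0.01) did not pass either. Irs2 in gastrocnemius was 0.28 ± 0.23 (adjusted p = 0.435) at 6 months.

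**Figure D5:**
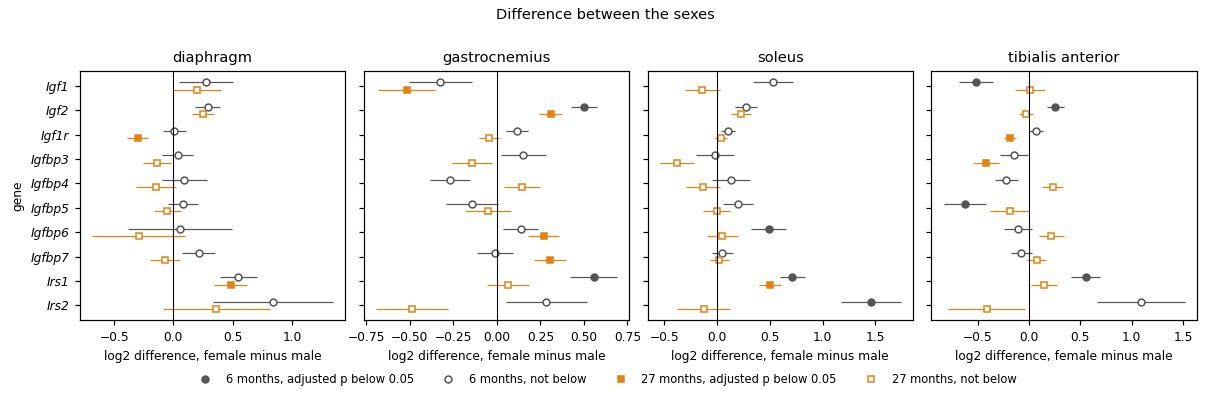
Log2 difference of female minus male level for each gene in each muscle at 6 months (circles) and 27 months (squares); bars are 1 SE, and filled symbols had an adjusted p below 0.05. With all libraries Irs1 at 6 months lies above 0 in all 4 muscles, filled in the 3 limb muscles, and Irs2 in soleus lies farthest from 0.

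Whether the change from 6 to 27 months differed between the sexes was tested directly. Of 40 interactions 1 passed (all genes, 1.02%), that of Irs2 in soleus. The female change minus the male change was -1.59 ± 0.37 (adjusted p = 0.02), and without libraries over 10 times the median of liver markers it was -1.54 (adjusted p = 0.12). Over all older ages 5 of 40 passed (5.95%). Irs2 passed in diaphragm (adjusted p = 0.009), gastrocnemius (adjusted p = 0.00046) and soleus (adjusted p = 2.8e-08). Irs1 passed in gastrocnemius (adjusted p = 0.0023) and Igf1 in soleus (adjusted p = 0.027). Against the gastrocnemius, 3 of 60 muscle-by-age interactions passed at 27 months (2.22%), all in females. The change of Igfbp4 was lower in diaphragm (-0.62 ± 0.18, adjusted p = 0.027, but with limma-voom -0.55, adjusted p = 0.055) and in soleus (-0.72 ± 0.18, adjusted p = 0.0053). That of Igf1r was higher in soleus (0.28 ± 0.07, adjusted p = 0.0093), but with library totals alone its sign was the opposite (-0.045). Without the 9 libraries 7 of 60 passed.

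Age classes compared a constant, a line and a logistic curve, as the study did, for genes with a call and a fold above 1.5 at any older age. The curves were fitted here over the logarithm of age, a scale the study does not state. A call here rested on edgeR and a Benjamini-Hochberg adjusted p. The study used limma and a Bonferroni adjusted p, so these classes are not at its threshold. Of 80 combinations of gene, muscle and sex 7 were linear and none was logistic (all genes in either class, 3.88%). All 7 fell and were female (falling genes in females, 1.74%): Igf1 in diaphragm and soleus, Irs1 in diaphragm and gastrocnemius, Irs2 in gastrocnemius and soleus, and Igfbp6 in soleus. Over age in months the same 7 combinations were linear. With no limit on the fold 17 combinations were linear. Logistic ones were not counted under that setting, whereas the share of all genes, 12.6%, holds both linear and logistic.

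Other genes of the pathway came from 3 lists: ligands, receptors and proteases, signalling parts downstream of the receptor, and proteins and neighbours tied to Igf2. At 27 months 14 of 108 tests of the first list rose and 12 fell. In the second 33 of 264 rose and 16 fell, and in the third 0 of 23 rose and 4 fell (all genes, 8.01% rose and 7.32% fell). The insulin receptor Insr fell in female tibialis anterior alone (-0.12 ± 0.03, adjusted p = 0.012). Igf2r, which clears Igf2 by endocytosis, rose in female gastrocnemius (0.16 ± 0.03, adjusted p = 0.0004), female soleus (0.39 ± 0.06, adjusted p = 2.1e-06) and male gastrocnemius (0.15 ± 0.04, adjusted p = 0.0013). Socs2, a feedback inhibitor of growth hormone signalling, fell in female diaphragm (-0.55 ± 0.14, adjusted p = 0.038), gastrocnemius (-0.77 ± 0.24, adjusted p = 0.011) and soleus (-0.43 ± 0.15, adjusted p = 0.034). It rose in male soleus (0.83 ± 0.23, adjusted p = 0.036). Eif4ebp1, a translation repressor under mTOR control, rose in male gastrocnemius (0.68 ± 0.19, adjusted p = 0.0078), soleus (0.71 ± 0.17, adjusted p = 0.011) and tibialis anterior (0.96 ± 0.21, adjusted p = 0.00098). In female tibialis anterior it rose by 0.29 ± 0.09 (adjusted p = 0.014).

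Ide, the insulin-degrading protease, rose in all 4 male muscles and in no female one. On the log2 scale the change was 0.85 ± 0.16 (adjusted p = 9.9e-05) in male tibialis anterior and 0.77 ± 0.17 (adjusted p = 0.0047) in soleus. It was 0.74 ± 0.16 (adjusted p = 0.00034) in gastrocnemius and 0.61 ± 0.20 (adjusted p = 0.043) in diaphragm. Ide values took separate levels between mice of 1 group, as described under the other observations.

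Among other calls, the protease Pappa fell in female gastrocnemius (-0.28 ± 0.09, adjusted p = 0.016) and soleus (-0.89 ± 0.23, adjusted p = 0.005). The imprinted noncoding RNA H19, whose gene lies 72622 bases from Igf2, fell in female soleus (-0.33 ± 0.11, adjusted p = 0.037), female tibialis anterior (-0.69 ± 0.16, adjusted p = 0.00089) and male soleus (-0.61 ± 0.13, adjusted p = 0.0024). Igf2bp2, which binds Igf2 messenger RNA, fell in female tibialis anterior (-0.80 ± 0.23, adjusted p = 0.0087). The adaptor Grb14, an inhibitor of the insulin receptor, fell in male diaphragm (-0.71 ± 0.18, adjusted p = 0.011). There the mTOR inhibitor Ddit4 rose (1.04 ± 0.32, adjusted p = 0.038), though among the libraries of the most used run of sample numbers its sign was the opposite (-0.43, adjusted p = 0.74). Foxo1, a transcription factor that AKT keeps out of the nucleus, rose in male tibialis anterior (0.60 ± 0.21, adjusted p = 0.039). Stc2, an inhibitor of Pappa, rose in male gastrocnemius (0.68 ± 0.24, adjusted p = 0.033) and tibialis anterior (0.62 ± 0.23, adjusted p = 0.047). Igfbp2 was scarce, and rose in female gastrocnemius, from a median of 0.127 to 0.298 CPM (1.52 ± 0.47, adjusted p = 0.012). In female tibialis anterior its call rested on medians of 0.00919 and 0.162 CPM, the former under 3 counts in a library of median depth, so no fold is given.

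Genes whose 48 group means followed those of a member most closely, out of 14182, are a description only, since all come from the same libraries. Igfbp6 was matched by Clec3b (Pearson r = 0.91) and by Gsn (0.90), the latter a gene of the fibroblast marker list, and without the 9 libraries by Sdc2 (0.93) and Dcn (0.92). Irs2 was matched by Nr4a1 (0.90), a nuclear receptor known as an immediate early gene, and by A530050N04Rik (0.88). Igf1 was matched by Fam49a (0.83) and Trim2 (0.82), Irs1 by Irf2bp2 (0.79) and Nr4a2 (0.76), Igfbp4 by Aldh1a2 (0.78) and C1ra (0.77), and Igfbp7 by Bgn (0.74) and Pam (0.73). The closest matches of Igf2 (Hey1, 0.58, and Id1, 0.57), Igfbp3 (Zbed5 and Tgfbr3, both 0.61) and Igfbp5 (Angptl2 and Sema3c, both 0.64) were weaker. Several matches changed without the 9 libraries. The first was then Dtx4 (0.85) for Igf1, Id1 (0.60) for Igf2, Tmed3 (0.62) for Igfbp3, Ptprd (0.74) for Igfbp5 and Pam (0.77) for Igfbp7. For Irs1, Irs2 and Igfbp4 the first match stayed the same.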

How the data were processed

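The authors sequenced strand-specific, rRNA-depleted total RNA, aligned the reads to mm10 and deposited unnormalised counts per gene of a RefSeq-based gene model, 1 column per library. Of 25091 lines, 633 that repeated a symbol (0.0335% of counts) were left out. For each repeated symbol the line with the largest total was kept. Groups followed the labels. Counts were filtered (filterByExpr), scaled (TMM) and tested over all genes with edgeR 4.0.16 (R 4.3.3): the quasi-likelihood test, each older age against 6 months within each muscle and sex, muscles within each sex, sexes within each muscle, and interactions. A call is a Benjamini-Hochberg adjusted p below 0.05. DESeq2 1.42.0, limma 3.58.1 (voom) and other scalings, filters and subsets were alternatives. The fits were tested on simulated data. Positions, exon lengths and GC content came from GENCODE M21 (GRCm38), windows before starts from RefSeq. All 10 members were named throughout. Other pathway genes were named past a fold of 1.5 at 27 months in any muscle and sex, at most 12 by smallest p, and Insr, Igf2r and Igfbp2 in any case (Igfbp2 also met the first rule). The 2 genes with the most similar pattern were named for each member except Igf1r, whose matches are not reported here. Membership is by symbol alone, but the set of members and the lists were proposed with earlier results of these data known. Labels do not tie muscles to mice, so p-values measure the spread between libraries of a group.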

Additional observations from a re-analysis of the deposited data

Results flagged for a closer look

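At 6 and 27 months a library was singled out where its gap to the nearest of the others, as a share of the group's range, passed Dixon's 95% critical value. Over all ages this happened in 66 of 480 combinations of gene and group (13.75%), 15 of them in libraries that stand apart, where chance alone gives about 1 in 20.

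Among the ligands, Igf1 was high in replicate 0 of female diaphragm at 27 months (191.9 CPM), replicate 4 of female tibialis anterior at 27 months (34.8 CPM), replicate 6 of male diaphragm at 27 months (157.4 CPM) and replicate 2 of male diaphragm at 6 months (172.1 CPM). Igf2 was low in replicate 0 of male gastrocnemius at 6 months (19.1 CPM).

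Igf1r was low in replicate 2 of female diaphragm (48.1 CPM) and replicate 6 of female soleus (44.2 CPM) at 6 months. Replicate 8 of the 27-month males was high in diaphragm (127.6 CPM), gastrocnemius (79.3 CPM) and tibialis anterior (84.2 CPM). The same number was low for Igfbp5 in gastrocnemius (212.5 CPM) and for Irs1 in diaphragm (22.0 CPM).

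Among the binding proteins, Igfbp3 was high in replicate 0 of female soleus (18.7 CPM) and low in replicate 6 of male soleus (8.90 CPM) at 6 months. Replicate 0 of female gastrocnemius at 27 months was high for Igfbp4 (99.2 CPM), Igfbp6 (38.3 CPM) and Igfbp7 (103.9 CPM). Igfbp5 was low in replicate 2 of male diaphragm at 6 months (503.4 CPM) and high in replicate 6 of male tibialis anterior at 27 months (1751 CPM). Igfbp6 was near 0 in replicate 0 of female diaphragm at 27 months (0.859 CPM) and replicate 2 of male diaphragm at 6 months (0.734 CPM), both low in GC-rich genes. Igfbp7 was high in replicate 6 of male soleus at 27 months (63.0 CPM) and at 6 months (63.5 CPM).

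For the substrates, Irs1 was high in replicate 0 of female diaphragm at 27 months (193.9 CPM), and Irs2 in replicate 1 of male tibialis anterior at 27 months (166.3 CPM) and replicate 0 at 6 months (57.8 CPM).

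Changes from 6 to 27 months that differed between groups by edgeR's quasi-likelihood test of the interaction were those of Igfbp4 in females, in diaphragm against gastrocnemius (-0.62) and in soleus against gastrocnemius (-0.72), of Igf1r in females, in soleus against gastrocnemius (0.28), and of Irs2 in soleus, females against males (-1.59).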

How the results depend on the processing

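Of the 400 tests of an older age, 54 passed, against 66 with DESeq2, 52 with limma-voom, 65 with library totals alone, 46 without libraries over 10 times the liver median, 40 in the run of sample numbers with most libraries, 57 without the 3 liver-rich libraries, 73 without the 7 low in GC-rich genes, 72 without the 9, 18 past a fold of 1.5 and 12 by Bonferroni, and 41 to 64 when 1 replicate was left out. The 25 any-age calls became 15 in that run and 4 by Bonferroni (18 to 25 with 1 replicate left out). The settings without the 3, the 7 or the 9 libraries were not planned. At 27 months, the 6 rises became 3 without liver-rich libraries (over 10 times the median), 3 in that run, 0 past the fold and 0 by Bonferroni (3 to 7 with 1 replicate left out, 3 without replicate 6). The 10 falls became 17 without the 7, 17 without the 9, 3 past the fold and 2 by Bonferroni (8 to 13). The 10 female calls became 3 past the fold and 2 by Bonferroni (8 to 14), and the 6 male calls 2 in that run, 0 past the fold and 0 by Bonferroni (2 to 6). Of these 16 calls 10 were kept whichever replicate was left out, and Igf1 and Igfbp6 in female soleus under every alternative.

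The 3 muscle-by-age interactions became 7 with library totals alone, 5 with the run of sample numbers as a covariate, 7 without the 9 libraries and 0 by Bonferroni. By Bonferroni the 19 sex differences became 8, those at 6 months 3 of 9, those at 27 months 0 of 9. The sex interaction at 27 months went from 1 to 0 without libraries over 10 times the liver median and 0 by Bonferroni, and the 5 over all ages to 9 with library totals alone, 3 without those libraries and 1 by Bonferroni. The 7 linear age classes became 17 linear ones with no fold limit, where logistic classes were not counted.

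Signs that changed with library totals alone were, in females, Igf1r (0.38) for diaphragm minus soleus, Irs2 (0.54) for diaphragm minus tibialis anterior, Irs1 (-0.092) and Igfbp4 (-0.076) for gastrocnemius minus soleus, Igfbp7 (0.17) for gastrocnemius minus tibialis anterior, Igfbp3 (0.12) and Igf2 (0.44) for soleus minus tibialis anterior, the Igf1r interaction (-0.045) and Insr in gastrocnemius at 27 months (0.081). In males they were Igfbp5 (0.39) and Irs2 (0.48) for diaphragm minus gastrocnemius, Igfbp5 (0.89) and Irs2 (0.85) for diaphragm minus tibialis anterior, Igfbp4 (-0.058) and Igf2 (-0.10) for gastrocnemius minus soleus, Igfbp7 (0.14) and Igf1r (0.16) for gastrocnemius minus tibialis anterior, and Igfbp3 (0.0015) and Igf2 (0.39) for soleus minus tibialis anterior. With DESeq2 size factors male Igfbp5 (0.15) for diaphragm minus tibialis anterior and Igf2 (0.0034) for soleus minus tibialis anterior changed sign, without the 9 libraries the former (0.14), and in the run with most libraries male diaphragm Ddit4 (-0.43). Beyond the scaling and subsets themselves, the cause was not tested.

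Replicate numbers did not pair the samples by a label: 72.0% to 98.0% of same-number pairs of limb muscles of 1 age had a correlation of deviations over 0.1, against 22.4% to 39.6% of pairs with the diaphragm. In the age fits a replicate block joins libraries of different ages within a muscle, so it cannot account for pairing between muscles. With that block 58 of 400 tests passed, and Igf1 in male tibialis anterior at 27 months was lost. With limma-voom and a replicate block within each age, 103 of 120 muscle comparisons and 2 of 60 muscle-by-age interactions passed. These counts were the same with limma-voom alone. Depth limits only the scarcest values, and age cannot be told apart from collection day.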

Other observations

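Ide, singled out after its values were seen, took separate levels in mice of 1 group. Relative to the median of 6-month males of the same muscle, 121 limb libraries lay below 1.25 (median ratio 1.05), 130 between 1.25 and 1.75 (1.52) and 58 above 1.75 (2.08). All 24 male limb libraries at 6 months were in the lowest class, while at 27 months 3 were low, 15 in the middle and 12 high. In females the split was 9 low, 15 in the middle and 0 high at 6 months, and 9, 18 and 3 at 27 months. These counts pool 3 limb muscles, so 1 mouse may be counted up to 3 times. Within each male limb muscle alone the split was 8, 0 and 0 at 6 months. At 27 months it was 1, 5 and 4 in each. Libraries with the same age, sex and replicate number fell in the same class in 97 of 102 pairs of gastrocnemius and tibialis anterior, 90 of 103 of gastrocnemius and soleus and 85 of 101 of soleus and tibialis anterior, but in 52 of 98 of diaphragm and tibialis anterior.

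Out of 13347 genes, Btaf1 (Pearson r = 0.76) and Fgfbp3 (0.66) followed Ide most closely across the 407 libraries, ahead of Uso1 (0.40), as a description over libraries of the same groups. Both are its neighbours on chromosome 19 of GRCm38, Fgfbp3 at chr19:36917550-36919615, Btaf1 at chr19:36926079-37012752 and Ide at chr19:37268743-37337852. Median ratios by Ide class, from low to high, were 0.92, 1.22 and 1.80 for Fgfbp3 and 1.08, 1.30 and 1.53 for Btaf1. A duplication that holds Ide and Fgfbp3 is known to segregate in C57BL/6J stocks, and whether these mice carry it was not tested. In male limb muscle the share of libraries in the higher classes moved with the age groups compared for Ide, and its part in that result was not tested.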
